A study of Mus musculus with 2 samples.

Results

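Smooth muscle cells (SMCs) of the control mouse aorta that carried transcripts of the homeobox genes Dlx5, Dlx6 and Msx2 were described among the other SMCs of the same library. A cell was taken when it had at least 500 genes detected, at most 10% of its UMIs (unique molecular identifiers, each standing for 1 captured RNA molecule) from mitochondrial genes, at least 5 UMIs of eGFP, and at least 2 UMIs summed over Dlx5, Dlx6 and Msx2. This gave 256 cells, here called the Dlx/Msx cells, of 1692 control eGFP cells and of 4192 cells deposited in the whole study. They made up 15.1% of the control eGFP cells (exact Clopper-Pearson 95% interval 13.5% to 16.9%), and the other 1436 control eGFP cells had a sum below 2. The measured values of the 3 genes chose the cells, so their levels below are a description and support nothing.

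The study set aortas with and without the kinase brake Tsc1 in SMCs side by side by droplet single-cell RNA sequencing on the 10x platform. The KO mice, labelled Tsc1-/-, carried Tsc1 fl/fl, Myh11-CreERT2 and the mT/mG reporter. The control mice, labelled Tsc1+/+, carried Myh11-CreERT2 and mT/mG. Mice of both genotypes were C57BL/6 males given tamoxifen at an age of 1.5 weeks, and viable GFP+ cells were sorted from their thoracic aortas at 24 weeks. Myh11-CreERT2 recombines in cells that use the Myh11 promoter when tamoxifen is present, so eGFP marks cells that were SMCs then and their progeny. Each genotype had 1 library, and the number of animals pooled in it was not given in the sources used here. There is therefore no replicate, no test and no p-value, and every interval covers counting error only.

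Dlx and Msx genes encode homeodomain transcription factors that pattern the mesenchyme of the branchial arches, much of it derived from the neural crest. In the mouse, SMCs of the ascending aorta and arch come largely from the neural crest and the second heart field, whereas those of the descending aorta come from somites, and Hox genes mark position along the body axis. Dlx5 and Msx2 are also known as targets of bone morphogenetic protein (BMP) signalling and as regulators of bone formation. The labels do not give the aortic segment from which a cell came.

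The deposited control library held 2095 cells and 21690868 UMIs, of which 2042 cells passed the limits on genes and mitochondrial UMIs. The KO library held 2097 cells and 32427513 UMIs, of which 1936 passed. Among kept control cells, 350 fell below the eGFP minimum, had a median of 3780.5 UMIs and expressed immune markers (macrophage markers summed to 16548 CPM, counts per 1000000 UMIs of the cells in question). Xist, an RNA made from the inactive X of female cells, was found in 303 of those 350 cells although the label says male. It was found in 3 of the 256 Dlx/Msx cells and in 2 of the other 1436 eGFP cells. The 350 cells enter no comparison except as a background. The libraries shared 16 cell barcodes, and 0 Dlx/Msx cells carried one of them. A doublet caller marked 6 cells in each library, 1 of them a Dlx/Msx cell.

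The Dlx/Msx cells were SMCs by the markers of that type. Acta2, Tagln, Myh11 and Cnn1, which encode proteins of the contractile apparatus, were each found in 100% of the Dlx/Msx cells. The summed level of 8 SMC markers was 31630 CPM in the Dlx/Msx cells, against 45525 CPM in the other eGFP cells and 1896 CPM in the cells below the eGFP minimum. The exception among the 8 was Des, which encodes the intermediate filament desmin and reached only 7.77 CPM in the Dlx/Msx cells. Prrx2 and Rgs5, given with the rule as markers but not used by it, were found in 86.3% and 98.8% of the Dlx/Msx cells.

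The sums of the rule genes, which chose the cells, were as follows. Among the eGFP cells 1307 had none of their UMIs, 129 had 1, 72 had 2, 54 had 3, 68 had 4 or 5 and 62 had 6 or more. The lowest sum among the Dlx/Msx cells was 2, the median 4 and the highest 15. These cells, 15.1% of the eGFP cells, held 1072 of the 1201 rule UMIs, or 89.3%. In the cells below the eGFP minimum 5 of 350 had a sum of 2 or more.

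**Figure D1:**
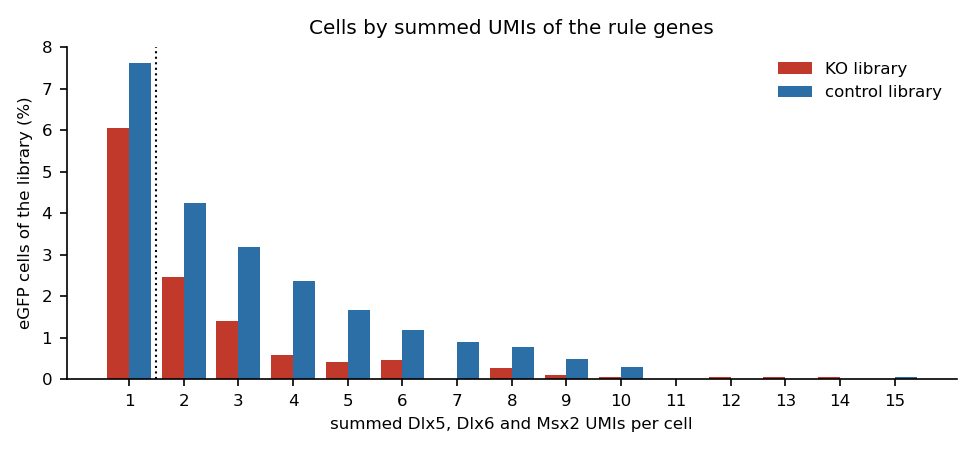
Share of the eGFP cells of each library (vertical axis, percent) at each summed UMI count of Dlx5, Dlx6 and Msx2 (horizontal axis), for sums of 1 and above; red bars are the KO library and blue bars the control library, and the dotted line marks the minimum of 2. Cells at a sum of 0, which are not drawn, numbered 1690 in the KO library and 1307 in the control library, and the control bars extend to 15 UMIs.

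All 3 rule genes were detected in 73 of the 256 cells (28.5%). Msx2 occurred together with Dlx5 or Dlx6 in 152 cells (59.4%), Dlx5 or Dlx6 without Msx2 in 94 cells (36.7%), and Msx2 alone in 10. A gene left out of the choice gave a view that its own UMIs did not enter. Msx2 was at 98.5 CPM in the 209 cells chosen by Dlx5 and Dlx6 only, against 5.61 CPM in the remaining eGFP cells (17.6 times, 95% interval 13.8 to 22.4). It was detected in 55.0% of the chosen and 4.99% of the remaining cells. Dlx5 was at 152 CPM in the 163 cells chosen by Dlx6 and Msx2, against 14.1 CPM in the rest (10.8 times, 9.05 to 12.8). Dlx6 was at 87.9 CPM in the 207 cells chosen by Dlx5 and Msx2, against 7.28 CPM in the rest (12.1 times, 9.63 to 15.2). Of the Dlx5 UMIs 281 lay in the chosen cells and 257 in the rest.

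Dlx5 and Dlx6 are neighbours on chromosome 6 of mm10, Dlx6 on the plus strand at positions 6863334 to 6868568 and Dlx5 on the minus strand at 6877805 to 6882085, with 9236 bases between them. The noncoding gene Dlx6os1 covers all 5235 bases of Dlx6 on the opposite strand. Whether counting used strand was not given in the sources used here, so reads of Dlx6 and Dlx6os1 may not be told apart. Msx2 lies on the minus strand of chromosome 13 at 53466884 to 53473074. Prrx2 lies on chromosome 2 at 30834972 to 30881251 and Rgs5 on chromosome 1 at 169655501 to 169695813, both on the plus strand.

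Promoter windows (250 bases before to 50 after the start in RefSeq, GRCm38.p6) are shown for the one rule gene in the promoter table and for the 2 given markers that were higher in the same cells. Windows were searched on both strands for TAATTA, a palindromic core that many homeodomains bind, for TATAAA, and for the CArG box bound by the SMC regulator SRF. Capitals mark a TAATTA match, and the motifs searched do not overlap it. Dlx5 and Dlx6 are named only. The Msx2 and Prrx2 windows lie wholly inside the gene spans given above, because the RefSeq starts used differ from the starts of those spans. The Rgs5 window begins before its span.
Msx2, chr13:53472731-53473030, minus strand: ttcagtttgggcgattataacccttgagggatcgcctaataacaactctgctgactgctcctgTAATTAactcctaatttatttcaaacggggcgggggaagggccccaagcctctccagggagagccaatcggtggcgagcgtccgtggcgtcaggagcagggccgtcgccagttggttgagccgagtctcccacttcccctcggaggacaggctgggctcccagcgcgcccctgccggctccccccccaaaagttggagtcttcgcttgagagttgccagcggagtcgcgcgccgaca
Prrx2, chr2:30845117-30845416, plus strand: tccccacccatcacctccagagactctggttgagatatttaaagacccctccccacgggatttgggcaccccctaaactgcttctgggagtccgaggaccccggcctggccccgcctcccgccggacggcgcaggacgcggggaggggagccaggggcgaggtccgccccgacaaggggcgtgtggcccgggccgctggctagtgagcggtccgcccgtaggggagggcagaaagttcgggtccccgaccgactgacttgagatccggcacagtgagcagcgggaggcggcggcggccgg
Rgs5, chr1:169655251-169655550, plus strand: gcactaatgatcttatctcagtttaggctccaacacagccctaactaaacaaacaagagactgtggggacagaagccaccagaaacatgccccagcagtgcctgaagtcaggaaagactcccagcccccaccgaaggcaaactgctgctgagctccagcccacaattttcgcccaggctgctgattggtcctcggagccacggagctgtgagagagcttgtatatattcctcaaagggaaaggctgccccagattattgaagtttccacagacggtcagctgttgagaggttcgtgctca
The Msx2 window held 1 TAATTA, at its base 64, and the windows of Prrx2 and Rgs5 held none of the 3 motifs. Among 32851 promoter windows of the same length 5.29% held TAATTA, 13.6% held TATAAA and 1.63% held a CArG box. A match is a run of letters and says nothing on binding.

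Other members of the Dlx, Msx and Prrx families followed the rule genes. Of 12 genes in that list, 9 had at least 10 CPM in either population (here called measured). All 9 were at least 1.5 times higher in the Dlx/Msx cells, and 3 of them were used by the rule. The 9 also include the noncoding gene Dlx6os1, which covers the rule gene Dlx6 and may not be told apart from it. Over all 8155 genes measured that way, 13.1% passed 1.5 times upward and 3.97% downward, and under trimmed mean of M-values (TMM) scaling 6.99% upward and 6.80% downward of 8112. The counts of the lists that follow are read against these shares. Dlx1 was at 19.4 CPM, against 0.873 CPM in the other eGFP cells (22.3 times, 95% interval 12.4 to 42.4). Dlx2, its neighbour in the genome, was at 47.3 CPM, against 2.74 CPM. Prrx2, a paired-related homeobox factor of limb and face mesenchyme, was at 244 CPM, against 26.0 CPM (9.40 times, 8.33 to 10.6). Its relative Prrx1 was at 138 CPM against 54.2 CPM, and Msx1 at 49.5 CPM against 22.5 CPM, so both were also clearly present in the other eGFP cells. Dlx3 and Dlx4 were at 0 UMIs in the Dlx/Msx cells.

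Rgs5 separated the Dlx/Msx cells from most other SMCs. It encodes a GTPase-activating protein that damps signalling through Gq- and Gi-coupled receptors and is widely used as a pericyte marker. Its level was 2673 CPM in the Dlx/Msx cells, against 348 CPM in the other eGFP cells (7.68 times, 95% interval 7.42 to 7.94). After each cell was thinned to 5000 UMIs, 96.3% of the Dlx/Msx cells had an Rgs5 UMI, against 42.0% of the other eGFP cells and 10.4% of the cells below the eGFP minimum. Unthinned, the share was 98.8% of the Dlx/Msx cells (median depth 10352.5 UMIs), 60.6% of the other eGFP cells (11983.5 UMIs) and 4.29% of the cells below the minimum (3780.5 UMIs). Thinning left out 12 of 256 Dlx/Msx cells, 78 of 1436 other eGFP cells and 273 of 350 cells below the eGFP minimum as too shallow. The thinned Prrx2 shares were 67.6% of the Dlx/Msx cells, 9.94% of the other eGFP cells and 3.90% of the cells below the minimum.

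High Rgs5 did not come with a full set of pericyte markers. Of 8 markers of pericytes, the mural cells of capillaries, Vtn, Higd1b and Ndufa4l2 were at 0 UMIs in the Dlx/Msx cells. Kcnj8, a pore subunit of ATP-sensitive potassium channels, was at 150 CPM, against 41.7 CPM (3.59 times). Its partner subunit Abcc9 was at 120 CPM, against 98.6 CPM (1.22 times), and the proteoglycan gene Cspg4 at 148 CPM, against 173 CPM (0.860 times). In the wider list of mural cell genes 3 of 11 measured genes were higher and 4 lower, with a median log2 ratio of -0.06 beside 0.17 over all genes measured. Lower ones included the Notch target Heyl (0.374 times), the Notch receptor Notch3 (0.490 times) and Mcam (0.628 times). Another Notch target, Hey1, ran the other way, at 20.5 CPM in the Dlx/Msx cells, against 6.93 CPM in the other eGFP cells (2.96 times). Of the other 7 measured RGS family genes, Rgs10 was at 42.7 CPM, against 12.3 CPM (3.48 times), and no other reached 1.5 times. Rgs10 was found in 34.0% of the Dlx/Msx cells, but also in 41.4% of the cells below the eGFP minimum, which expressed immune markers.

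Genes were ranked over all 3045 with at least 50 CPM in either population. Of these, 275 (9.03%) were at least 1.5 times higher in the Dlx/Msx cells and 137 (4.5%) at least 1.5 times lower, with a median log2 ratio of 0.11 over all 3045. The 275 include the rule genes, which chose the cells. At a minimum of 2 times the counts were 114 and 54, and at a minimum of 4 times 35 and 8. Scaling by the trimmed mean of M-values (TMM) lowered every log2 ratio by 0.21 and turned the balance round, with 150 genes higher (4.99%) and 243 lower (8.08%) of 3006. Ratios near 1 therefore had no settled direction, and the genes named below as 2 or more times different kept theirs. The rule cells and the others come from the same library, so the gene ratios describe these cells and were not tested.

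Genes outside the Dlx, Msx and Prrx families were also among those with the largest ratios. Adamtsl1, a secreted ADAMTS-like matrix glycoprotein, was at 173 CPM, against 9.60 CPM (18.0 times, 95% interval 15.1 to 21.6). Lpar1, a receptor for lysophosphatidic acid, was at 54.0 CPM, against 3.20 CPM, and Pde10a, a cyclic nucleotide phosphodiesterase, at 59.0 CPM, against 3.96 CPM. Prss12, the secreted protease neurotrypsin, was at 135 CPM, against 10.6 CPM (12.7 times). Gng2, a G protein gamma subunit, was at 50.5 CPM, against 4.19 CPM, but it was also found in 26.3% of the immune-marked cells below the eGFP minimum. Tshz2, a zinc finger homeobox factor, was at 140 CPM, against 12.9 CPM (10.9 times). Gpc3, a heparan sulfate proteoglycan of the cell surface, was at 136 CPM, against 15.7 CPM, and Mdk, the growth factor midkine, at 85.8 CPM, against 11.5 CPM.

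Genes with the smallest ratios ranged from sparse to widely detected ones. Des was at 7.77 CPM in the Dlx/Msx cells, against 108 CPM in the other eGFP cells (13.9 times lower), and it was detected in 6.64% of the Dlx/Msx cells, against 17.9% of the others. Tnnt2, a cardiac troponin T, was at 10.2 CPM, against 80.4 CPM, and Sncg, gamma-synuclein, at 18.4 CPM, against 144 CPM. Rbp4, the retinol carrier, was at 57.2 CPM, against 269 CPM (4.71 times lower). Hey2, a Notch target that in mice marks developing arteries, was at 11.3 CPM, against 50.9 CPM (4.50 times lower). Bcam, a laminin receptor, was at 205 CPM, against 761 CPM (3.72 times lower), and was detected in 73.4% of the Dlx/Msx cells, against 96.0% of the others.

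**Figure D2:**
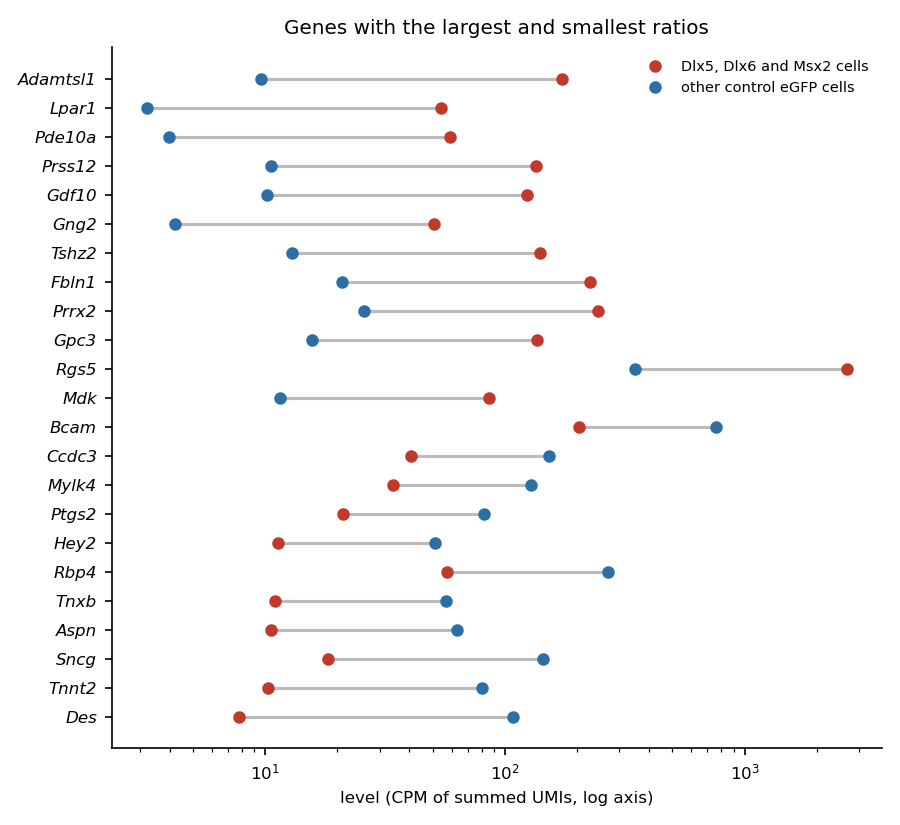
Levels (CPM of summed UMIs, log axis) of the 12 genes with the largest and 11 of the 12 with the smallest ratios among genes with at least 50 CPM, in the Dlx/Msx cells (red) and the other control eGFP cells (blue). Rule genes are left out; Adamtsl1 at the top has 173 against 9.60 CPM and Des at the bottom 7.77 against 108 CPM.

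Average levels of genes outside the rule moved in steps with the rule sum. Rgs5 was at 275 CPM in cells with a sum of 0, 1164 CPM at 1, 2762 CPM at 2, 2677 CPM at 3, 2501 CPM at 4 to 5 and 2747 CPM at 6 or more. Just outside the minimum, at a sum of 1, its average thus lay between the cells at 0 and those just inside, at 2, and it was level above that. In the clustering below, the 129 cells at a sum of 1 were spread over clusters, 59 in cluster 3, 42 in cluster 1 and 28 in cluster 2. The average at a sum of 1 therefore need not mean cells of intermediate level. Prrx2 ran 18.97, 104, 226, 259, 249 and 246 CPM over the same bins. The Wnt antagonist gene Sfrp2 kept climbing, at 252, 811, 1022, 1616, 1682 and 2057 CPM. Des ran 111, 74.7, 10.8, 7.14, 8.13 and 5.04 CPM, and Acta2 ran 22291, 19205, 16142, 13764, 13587 and 13149 CPM. The Dlx/Msx cells were shallower than the others, and their share was 10.5% of the eGFP cells at or above the median depth and 19.7% below it, a difference whose part in these steps was not tested. Within the deeper cells Rgs5 was at 2430 CPM in the Dlx/Msx cells, against 281 CPM in the others, and within the shallower cells at 2896 CPM against 482 CPM.

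**Figure D3:**
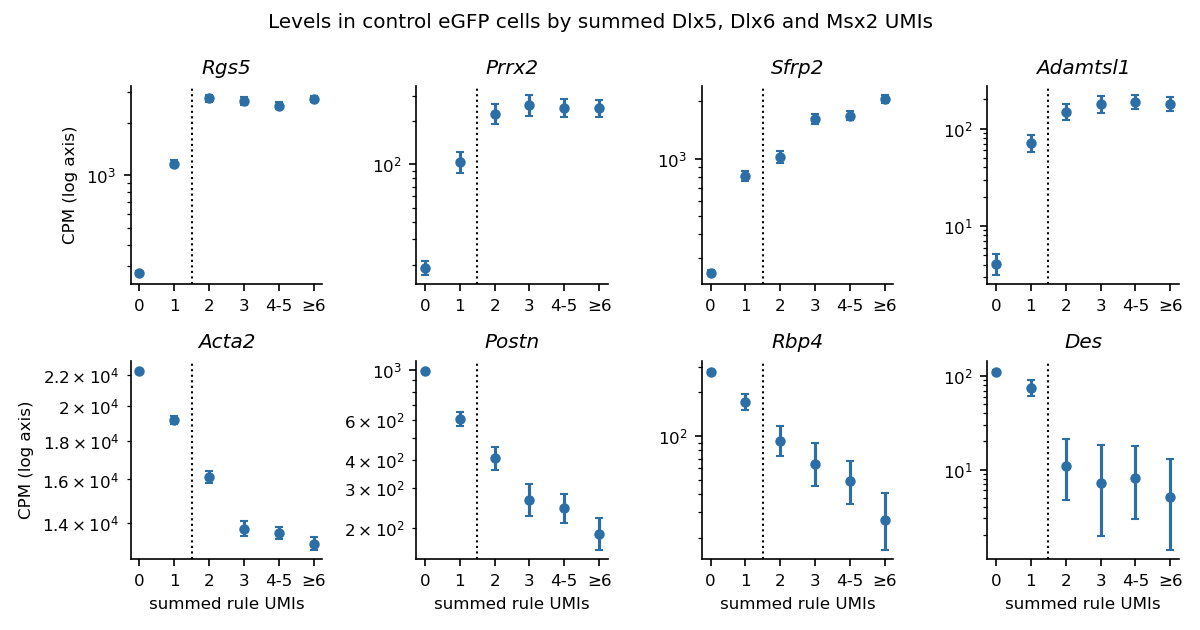
Levels (CPM, log axes that differ between panels) of 8 genes outside the rule in control eGFP cells grouped by summed Dlx5, Dlx6 and Msx2 UMIs (horizontal axis); bars are exact Poisson 95% intervals, counting error only, and the dotted line marks the minimum of 2. Rgs5 stays between 2501 and 2762 CPM in all 4 bins above the line, while Acta2 goes down to 13149 CPM in the bin of 6 or more.

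Clustering without the Dlx, Msx and Prrx genes put most Dlx/Msx cells together. Of the 256, 237 (92.6%) fell in 1 of 4 clusters, number 3, which held 357 cells, and 11, 8 and 0 fell in clusters 1, 2 and 4. Cluster 3 also held 59 cells with a sum of 1 and 61 with a sum of 0. Within it, Rgs5 was at 2800 CPM in the Dlx/Msx cells and 2261 CPM in the other 120 cells. Outside it, Rgs5 was at 1347 CPM in the other 19 Dlx/Msx cells and 219 CPM in the remaining 1316 cells. Fbln1, a secreted fibulin of elastic fibres and basement membranes, was at 248 CPM in the Dlx/Msx cells inside cluster 3, 0 in those outside it, 150 CPM in the other cells inside and 12.4 CPM in the other cells outside. The cells with a sum of 0 or 1 in cluster 3 thus carried levels of these genes nearer to the Dlx/Msx cells than to the rest. Because such genes shaped the clusters, this is a description. Des stood at 1241 CPM in the 42 cells of cluster 4, which therefore weigh on its average in the other eGFP cells, and at 57.0 and 116 CPM in clusters 1 and 2, against 10.6 CPM in cluster 3. Dcn and Tnnt2 were also among the leading genes of cluster 4 by fold, and Tnnt2 among those of cluster 2.

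Most contractile genes differed by less than 1.5 times, and Des had the fewest UMIs among them, 22. None of its 28 measured genes was 1.5 times higher in the Dlx/Msx cells and 8 were 1.5 times lower, with a median log2 ratio of -0.21 beside 0.17 over all genes measured (-0.42 under TMM, with 9 lower). Acta2, smooth muscle alpha-actin, was at 14167 CPM, against 22036 CPM (0.643 times), and Tagln, the actin-binding protein SM22, at 6030 CPM, against 10748 CPM (0.561 times). Ppp1r14a, an inhibitor of myosin phosphatase, was at 501 CPM, against 1238 CPM (2.47 times lower). Myh11, the smooth muscle myosin heavy chain, was at 2026 CPM, against 2584 CPM (0.784 times), and Cnn1, calponin, at 2276 CPM, against 2454 CPM (0.927 times). Actg2, gamma-actin of visceral muscle, was at 873 CPM, against 664 CPM (1.32 times). Myocd, the SMC co-activator, was at 42.4 CPM, against 65.0 CPM, and its partner Srf at 62.5 CPM, against 58.0 CPM.

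Genes of the neural crest and branchial arches included several with high ratios. Of 45 transcription factors in the list 21 were measured, 9 of them higher and 1 lower, with a median log2 ratio of 0.31. Under TMM 7 were higher and 3 lower, with a median of 0.10. Barx1, an arch homeobox factor, was at 14.5 CPM, against 0.698 CPM (20.7 times), and Tfap2b, an AP-2 factor of neural crest cells, at 28.6 CPM, against 2.04 CPM (14.04 times). Snai1, a zinc finger factor of migrating mesenchyme, was at 38.5 CPM, against 4.48 CPM (8.59 times). Foxf1, a forkhead factor of visceral mesoderm, was at 72.8 CPM, against 15.3 CPM (4.75 times). Sox9, known from neural crest and cartilage, was at 130 CPM, against 38.6 CPM (3.36 times). Hand2, which is also known from the branchial arches and the heart, ran the other way, at 32.5 CPM against 70.5 CPM (0.461 times). Gata6 and Foxc1, factors of cardiovascular mesenchyme, stood at 1.24 and 1.18 times. The list thus held members that were rare in other SMCs and members shared by both populations.

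Hox genes gave a weaker and partly unsettled difference. Of 39 Hox genes only 6 were measured, 3 of them at least 1.5 times higher in the Dlx/Msx cells, with a median log2 ratio of 0.64 (0.43 under TMM, with 2 higher). Hoxa4 was at 13.4 CPM from 38 UMIs, against 5.47 CPM (2.45 times, 95% interval 1.64 to 3.61). Hoxa2 was at 13.1 CPM from 37 UMIs, against 6.69 CPM (1.95 times), and Hoxb4 at 13.8 CPM from 39 UMIs, against 8.21 CPM (1.68 times). Hoxa3 was at 60.0 CPM, against 41.3 CPM (1.45 times, 1.22 to 1.72). Hoxb2 was at 42.0 CPM, against 36.7 CPM (1.15 times, 0.934 to 1.40), and its direction turned under TMM (0.989 times). Hoxa5 was at 16.2 CPM, against 13.2 CPM, with an interval from 0.875 to 1.69 times. Both populations therefore carried anterior Hox genes at levels of the same order, and the depth did not separate Hoxb2 or Hoxa5.

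BMP pathway genes were higher or level in the Dlx/Msx cells, with 1 exception. Of 22 measured, 11 were at least 1.5 times higher (50%, beside 13.1% over all genes measured) and 1 lower, with a median log2 ratio of 0.60. Under TMM, 8 were higher and 1 lower, with a median of 0.38. Among secreted ligands and antagonists, Gdf10, a TGF-beta family ligand, was at 124 CPM, against 10.2 CPM (12.2 times). The BMP antagonists Grem1 and Nog were at 41.3 CPM against 1.86 CPM (22.2 times) and at 12.4 CPM against 1.05 CPM (11.8 times). Bmp2 was lower, at 8.83 CPM from 25 UMIs, against 21.7 CPM (0.408 times). Of the receptors, Bmpr1b was at 72.4 CPM, against 22.6 CPM (3.21 times), whereas Bmpr1a and Bmpr2 stood at 1.04 and 0.875 times. The target genes Id1, Id3 and Id4, inhibitors of basic helix-loop-helix factors, stood at 1.89, 1.91 and 1.71 times, and Smad6, an inhibitory Smad, at 1.53 times. Gdf10, the antagonists and these targets were thus higher together, while Bmpr1a and Bmpr2 differed little.

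Wnt genes differed in both directions among ligands and among receptors. Of 22 measured, 7 were higher and 4 lower, with a median log2 ratio of 0.02. Under TMM 6 were higher and 5 lower, and the median turned to -0.19. Several secreted antagonists were higher, but Wif1 was not, at 140 CPM against 174 CPM. Sfrp2 was at 1601 CPM, against 298 CPM (5.37 times), Frzb at 192 CPM, against 29.4 CPM (6.54 times), and Sfrp4 at 23.0 CPM, against 2.91 CPM (7.89 times). Ror2, a receptor for Wnt5a, was at 17.3 CPM, against 0.524 CPM from 9 UMIs (33.0 times, 95% interval 16.1 to 76.5). The ligands Wnt5a and Wnt5b stood at 2.89 and 6.77 times. Wnt16 (4.38 times lower), Fzd1 (2.10 times lower), Ror1 and Lrp5 made up the lower 4.

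Elastic fibre and matrix genes differed in both directions. Of 50 measured, 18 were higher and 7 lower, with a median log2 ratio of 0.42 (0.21 under TMM, with 14 higher and 9 lower). Higher ones included parts of the elastic fibre and its microfibrils. Fbln1 was at 226 CPM, against 21.01 CPM (10.8 times, 95% interval 9.44 to 12.3), Ltbp2, a microfibril-binding protein, at 166 CPM, against 38.8 CPM (4.28 times), and Efemp1 at 31.8 CPM, against 3.96 CPM (8.03 times). Chosen after their values were seen, Mfap5 was at 1442 CPM, against 493 CPM (2.92 times), Fbln5 at 1820 CPM, against 709 CPM (2.57 times), and Eln, elastin itself, at 4121 CPM, against 2570 CPM (1.60 times). Lower ones included matricellular and small leucine-rich proteins. Postn, periostin, was at 275 CPM, against 952 CPM (3.46 times lower), Tnc, tenascin C, at 1.41 CPM from 4 UMIs, against 20.0 CPM, and Aspn, asporin, at 10.6 CPM, against 62.9 CPM (5.93 times lower). Dcn, decorin, had 3 UMIs in the Dlx/Msx cells, a ratio of 0.0400 with a 95% interval from 0.00822 to 0.118.

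**Figure D4:**
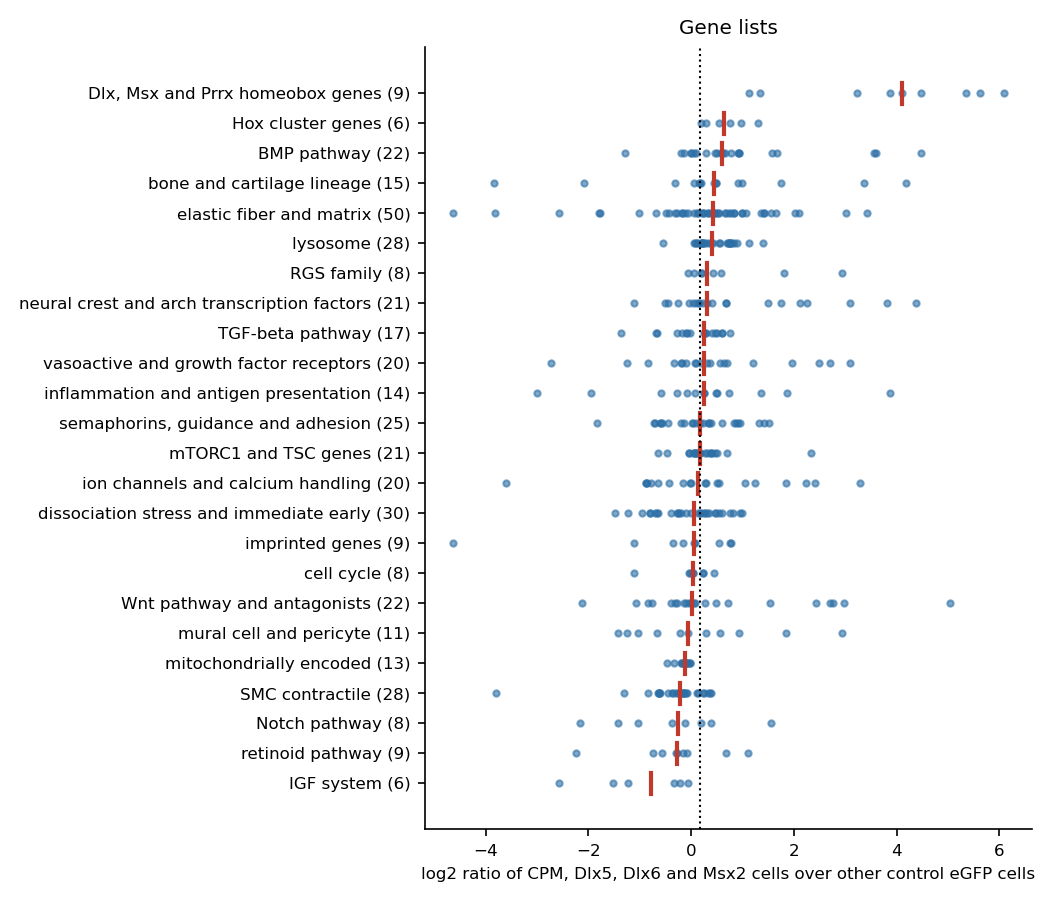
Log2 ratio of CPM in the Dlx/Msx cells over the other control eGFP cells (horizontal axis) for each measured gene (blue points) of 24 lists, with the number of measured genes in brackets and the list median as a red bar. The dotted line is the median over all genes measured, 0.17. The homeobox list sits at 4.11 with its 3 rule genes and Dlx6os1 included, the BMP list at 0.60 and the contractile list at -0.21.

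Receptors and channels of vascular tone included genes in both directions. The receptor list held vasoactive receptors and also growth factor receptors. Of its 20 measured genes 7 were higher and 3 lower, beside 13.1% higher and 3.97% lower over all genes measured. Its median log2 ratio was 0.26 (0.04 under TMM, with 5 higher and 3 lower). Ednra, the endothelin A receptor, was at 37.1 CPM, against 4.37 CPM (8.50 times), Calcrl, the receptor chain for CGRP and adrenomedullin, at 33.6 CPM, against 5.94 CPM (5.65 times), and Adrb1, the beta-1 adrenoceptor, at 10.9 CPM, against 1.69 CPM. The ATP receptor gene P2rx1 had 7 UMIs, or 2.47 CPM, against 16.3 CPM (6.59 times lower). Both subunits of the nitric oxide receptor were lower, Gucy1a3 at 83.4 CPM against 198 CPM (0.422 times) and Gucy1b3 at 105 CPM against 187 CPM (0.560 times). Of 20 measured channel and calcium handling genes 6 were higher and 6 lower, with a median of 0.13. Under TMM 5 were higher and 7 lower of 19, and the median turned to -0.21. Kcnk3, a two-pore-domain potassium channel, was at 54.4 CPM, against 10.2 CPM (5.31 times), Kcne4, an accessory potassium channel subunit, at 47.7 CPM, against 10.1 CPM (4.74 times), and Pln, phospholamban, had 3 UMIs, or 1.06 CPM, against 12.9 CPM (0.0820 times, 95% interval 0.0168 to 0.243).

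Bone and cartilage genes were looked at because Dlx5 and Msx2 act in osteoblasts. Of 15 measured, 5 were higher and 2 lower, with a median log2 ratio of 0.44. Under TMM 5 were higher and 3 lower of 16, with a median of 0.10. Runx2, the osteoblast master factor, was at 14.8 CPM from 42 UMIs, against 0.815 CPM (18.2 times, 95% interval 9.75 to 36.1), and it was detected in 14.5% of the Dlx/Msx cells, against 0.975% of the other eGFP cells and 4.57% of the cells below the eGFP minimum. Pthlh, parathyroid hormone-related protein, was at 25.1 CPM, against 2.44 CPM (10.3 times), and Enpp1, which makes the mineralisation inhibitor pyrophosphate, at 44.9 CPM, against 22.5 CPM (1.99 times). Comp, a cartilage matrix protein, had 2 UMIs, against 174 in the other eGFP cells, and Tnfrsf11b, osteoprotegerin, was at 3.53 CPM, against 15.0 CPM (4.24 times lower). The cartilage genes Col2a1, Chad and Matn3 were at 0 UMIs in the Dlx/Msx cells.

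Markers of other cell types gave no full set of any other type in the Dlx/Msx cells. Macrophage markers summed to 16.6 CPM in the Dlx/Msx cells, against 18.9 CPM in the other eGFP cells, with 7 of 12 at 0, Csf1r and the C1q genes among them. Endothelial markers summed to 74.5 CPM, against 46.3 CPM, with 6 of 10 at 0, among them Cdh5, Kdr and Tek. Fibroblast markers summed to 622 CPM, against 797 CPM, with Lum, Clec3b and Ly6a at 0, while Pi16 was at 22.6 CPM, against 0.873 CPM, and Pdgfra at 19.4 CPM, against 5.01 CPM. Schwann and neural markers summed to 634 CPM, against 356 CPM, of which Ncam1 gave 633 CPM, against 353 CPM, and 7 of 10, Sox10 among them, were at 0. Chondrocyte markers summed to 160 CPM, against 70.6 CPM, most of it Sox9. Lymphocyte markers summed to 5.65 CPM, against 16.4 CPM, neutrophil markers to 14.1 CPM, against 8.91 CPM, cardiomyocyte markers to 33.9 CPM, against 119 CPM, and adipocyte markers to 141 CPM, against 195.3 CPM. Of the stress and immediate early list 5 of 30 measured genes were higher and 8 lower, with a median log2 ratio of 0.06. Under TMM 3 were higher and 9 lower, and the median turned to -0.15. Heat shock genes, which tissue digestion can raise, were lower in the Dlx/Msx cells, Hspa1b at 99.3 CPM against 278 CPM and Hspa1a at 543 CPM against 1274 CPM. Immediate early genes Junb and Nr4a2 were among the 5 higher, at 1.93 and 1.99 times. Cluster 1 of the clustering above held 781 eGFP cells but only 11 Dlx/Msx cells, and Myc, Hspa1b, Arc and Ptgs2 were among its leading genes by fold. Its cells therefore weigh on the averages of the other eGFP cells in this list. The part of this stress pattern in the other gene ratios was not tested.

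Within the Dlx/Msx cells, those with Msx2 and those without it shared most of the pattern. Rgs5 was at 2879 CPM in the 152 cells with Msx2 and a Dlx gene, and 2356 CPM in the 94 cells with a Dlx gene and no Msx2 UMI. Fbln1 was at 275 CPM in the cells with Msx2 and 151 CPM in those without. Gdf10 was at 150 CPM in the cells with Msx2 and 82.0 CPM in those without, and Postn at 210 CPM in the cells with Msx2 and 365 CPM in those without. Acta2 was at 13234 CPM in the cells with Msx2, and 15326 CPM in those without. Each difference pointed the same way as that between the Dlx/Msx cells and the rest, and cells without a Msx2 UMI include cells in which Msx2 was missed.

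The same rule applied to the KO library gave 113 of 1919 eGFP cells, 5.89% (4.88% to 7.04%), against 15.1% in the control library. The 113 KO cells had a median of 16072 UMIs, against 10352.5 UMIs in the 256 control cells. After thinning to 5000 UMIs the shares were 1.42% of KO eGFP cells and 8.11% of control eGFP cells. Genotype, library and animals cannot be told apart here. Tsc1, the targeted gene, was at 12.3 CPM in the KO Dlx/Msx cells, against 12.01 CPM in the control ones, and at 8.29 CPM in the other KO eGFP cells, against 9.14 CPM in control. The counts do not say which exons the UMIs came from, so they do not check the deletion. Msx2 occurred with a Dlx gene in 31 of the 113 KO cells (27.4%), against 152 of the 256 control cells (59.4%), and Dlx genes without Msx2 in 81 KO cells (71.7%), against 94 control cells (36.7%). Msx2 was at 20.5 CPM in the KO Dlx/Msx cells, against 108 CPM in the control ones (0.190 times), Dlx6 at 55.8 CPM, against 102 CPM (0.549 times), and Dlx5 at 139 CPM, against 169 CPM (0.820 times).

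Relative to the other eGFP cells of their own library, the KO cells chosen by the rule shared part of the control pattern. Of 3025 KO genes with at least 50 CPM, 196 (6.48%) passed 1.5 times upward against the other KO eGFP cells and 121 (4%) downward. Of the 275 genes higher in control, 92 were also higher in KO (33.5% of the control genes and 46.9% of the KO genes), and of the 137 lower in control 55 were also lower in KO (40.1% and 45.5%). The 275 include the rule genes and the 92 include Dlx5 and Dlx6, whose excess in both libraries was fixed by the rule. Of the 275 and the 137, 199 and 116 had at least 50 CPM in a KO population, and none passed 1.5 times in the opposite direction there. Adamtsl1 was at 47.1 CPM in the KO Dlx/Msx cells, against 2.19 CPM in the other KO eGFP cells (21.5 times), and Prss12 at 147 CPM, against 10.8 CPM (13.7 times). Ptgs2, cyclooxygenase 2, was 3.87 times lower in the control Dlx/Msx cells and did not differ that way in KO, at 42.0 CPM against 42.7 CPM. The difference between the libraries in these ratios was not tested.

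**Figure D5:**
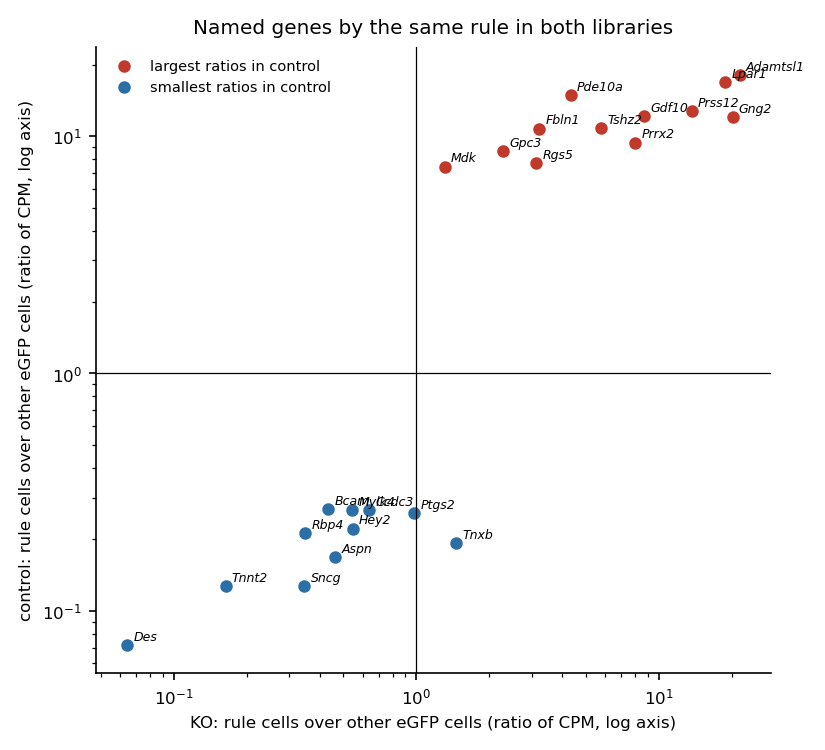
Ratio of CPM, cells chosen by the rule over the other eGFP cells, in the KO library (horizontal log axis) and in the control library (vertical log axis) for the 12 genes with the largest (red) and 11 of the 12 with the smallest (blue) control ratios, rule genes left out. All red genes lie above 1 on both axes, Mdk nearest to it at 1.31 in KO; of the blue genes, Tnxb is above 1 in KO (1.46), and Ptgs2 lies just below 1 (0.982).

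Levels of several of these genes in the Dlx/Msx cells also differed between the libraries. Rgs5 was at 132 CPM in the KO Dlx/Msx cells, against 2673 CPM in the control ones (0.0494 times, 95% interval 0.0435 to 0.0559), and at 42.3 CPM in the other KO eGFP cells, against 348 CPM in control. Thinned to 5000 UMIs, 23.0% of the KO Dlx/Msx cells had an Rgs5 UMI, against 96.3% of the control ones; unthinned, the shares were 28.3% and 98.8%. Prrx2 was at 54.8 CPM in KO, against 244 CPM (0.224 times), and Gpc3 had 2 UMIs in KO, or 1.02 CPM, against 136 CPM (0.00755 times, 0.000911 to 0.0275). Prss12 and Sfrp2 were close, at 147 CPM against 135 CPM and at 1566 CPM against 1601 CPM. Frzb was at 701 CPM in KO, against 192 CPM (3.65 times). The other eGFP cells also differed between the libraries in these genes. There Frzb was at 183 CPM in KO, against 29.4 CPM in control (6.23 times), Prrx2 at 6.87 CPM, against 26.0 CPM (0.265 times), and Gpc3 at 0.451 CPM, against 15.7 CPM (0.0288 times). Acta2 was at 4093 CPM, against 14167 CPM (0.289 times), and Cnn1 at 276 CPM, against 2276 CPM (0.121 times). Contractile genes were lower again relative to the other KO eGFP cells, with 14 of 28 measured lower and 1 higher and a median log2 ratio of -0.60, beside 4.43% lower and 8.08% higher over all KO genes with at least 10 CPM. They were also low in those other KO eGFP cells, with Acta2 at 11758 CPM, against 22036 CPM in control.

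The authors' deposited table of cluster averages, in counts per 10000 as its columns sum to 10000, placed the rule genes in 1 cluster. In the authors' deposited table cluster number 4 had the highest Dlx5 average of each library, 1.92 in KO and 1.54 in control. In cluster 4 of the authors' deposited table Msx2 averaged 0.247 in KO and 1.03 in control, Prrx2 4.92 in KO and 2.89 in control, Rgs5 6.75 in KO and 29.6 in control, and Sfrp2 48.9 in KO and 16.1 in control. Msx2 and Rgs5 were thus lower in KO there, as by the rule. Prrx2 and Sfrp2 were higher in KO there, whereas by the rule Prrx2 was lower in KO and Sfrp2 close. Gdf10 averaged 4.81 in KO cluster 4 of the authors' deposited table, above control. By the rule Gdf10 was lower in KO, at 43.5 CPM against 124 CPM. The reason for these opposite directions was not tested. Control cluster 2 of the authors' deposited table also had Sfrp2 at 14.02, and the authors' deposited table gave Tshz2 at 1.999 in control cluster 4 and 2.298 in control cluster 2, Fbln1 at 3.12 and 3.16, and Gdf10 at 1.65 and 1.39 in the same order. The table's averages carry no spread, and the cells behind a cluster are not listed in it.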

How the data were processed

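Sorted GFP+ cells from enzyme-digested aortas went into 10x libraries, per the labels' protocols. The authors deposited raw UMI counts, 1 matrix per library. The submitters' processing notes name Cell Ranger, bcl2fastq and Seurat 2.0, and the build mm10. The third file the authors deposited holds averages per cluster and library for 16415 genes, whose columns sum to 10000, read here as another unit than counts.

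CPM of a population are its summed counts of a gene over its summed total. Ratios carry the exact conditional binomial 95% interval, shares the Clopper-Pearson interval. A gene was listed at a ratio of 1.5 and a minimum of 50 CPM in either population, list genes at 10 CPM. The floor of 3 counts equals 1.06 CPM in the Dlx/Msx cells and 0.175 CPM in the other control eGFP cells. Thinning used 5000 UMIs per cell. Clusters came from scanpy 1.11.5 (2000 variable genes without Dlx, Msx and Prrx genes, 30 components, 15 neighbours, Leiden resolution 0.5), doublets from Scrublet (kept in the main values) and TMM factors from edgeR 4.0.16. The code was tested on simulated data.

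The named genes are the markers given with the rule, the 12 largest and 12 smallest ratios, up to 4 members at either end of each list, and Hox and contractile genes. Other genes named, such as partners of these, were picked with their values already seen. Some genes under this rule are not reported here. The members and lists were chosen with earlier results of these data known. Of 27998 gene identifiers 27645 were found in GENCODE M21 of the same build. Alternatives changed the rule's minimum or genes, depth, eGFP, mitochondrial and gene limits, doublets, cells with immune UMIs, the way cells were averaged, scaling, the CPM filter and the ratio.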

Additional observations from a re-analysis of the deposited data

How the results depend on the processing

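No paired analysis was possible because each group has 1 library with replicate number 1 and the results come from no test. For the same reason no replicate could be left out. The size of the Dlx5, Dlx6 and Msx2 population was 15.1% of control eGFP cells, and 22.8% at a minimum of 1 UMI, 10.9% at 3, 9.05% at 4 against 0, 8.11% thinned to 5000 UMIs, 10.5% at or above the median depth, 19.7% below it, 12.4% by Dlx5 and Dlx6 only, 5.20% by Msx2 only and 19.2% at a mitochondrial limit of 5%. The population in the KO library, 5.89%, was 11.9% at 1 UMI, 3.44% at 3, 2.26% at 4 against 0, 1.42% thinned, 0.365% by Msx2 only and 7.41% at a mitochondrial limit of 5%. The share therefore depends on the minimum and on depth, and it was lower in the KO library than in the control library under each of these settings run in both. Genes at least 1.5 times higher in the population numbered 275, and 182 at 1 UMI, 424 thinned, 150 under TMM, 150 under median-of-ratios scaling, 1071 at 10 CPM, 63 at 200 CPM, 5752 without a filter and 114 at a ratio of 2. Genes at least 1.5 times lower in the population numbered 137, and 75 at 1 UMI, 243 under TMM, 243 under median-of-ratios scaling, 324 at 10 CPM, 51 at 200 CPM, 932 without a filter and 54 at a ratio of 2. All 182 genes higher at 1 UMI were among the 275, as were 231 of the 424 when thinned. The Hox cluster list median, 0.64, was 0.44 at 1 UMI, 0.53 at 3, 0.47 below the median depth, 0.47 by Dlx5 and Dlx6 only, 0.51 at 20 eGFP UMIs, 0.53 as a mean of CPM over cells, and 0.43 under TMM and median-of-ratios scaling. The SMC contractile list median, -0.21, was -0.42 under both scalings. Of 2465 values of 145 named genes under 17 alternatives, 1874 moved by less than the counting error, 588 moved further and 3, of genes at least 1.5 times different, turned round. These 3 were Hoxb4 at 0.858 times when thinned and, by Msx2 only, Tgif1 at 0.955 times and Isg15 at 0.930 times. Hoxb2, Hoxb3, Hoxb5, Igf2r, Rgs4 and mt-Atp6, all within 1.5 times in the values reported, also crossed 1 under some alternatives. The cause was not tested. Restricting the Dlx/Msx cells to cluster 3 and the others to the other clusters, chosen after the data were seen, gave 322 higher genes, 273 of them among the 275, and 161 lower genes, 137 of them among the 137. Genes with large ratios, such as Adamtsl1 and Prss12, lead cluster 3, so a large overlap was built into this choice and supports nothing. Depth limits the small end: with 1072 rule UMIs over 256 cells, cells at a sum of 0 or 1 cannot be called free of these transcripts.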

Other observations

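Further gene lists are given beside shares of 13.1% higher and 3.97% lower over all genes measured in the Dlx/Msx cells against the other control eGFP cells. Of 6 measured genes of the IGF system 0 were higher and 3 were lower, with a median log2 ratio of -0.79. The binding protein genes Igfbp4, Igfbp2 and Igfbp5 were at 57.2 CPM against 163 CPM, at 30.02 CPM against 70.8 CPM and at 3.53 CPM against 21.1 CPM. Guidance and adhesion genes had 8 of 25 higher and 5 lower, with a median of 0.17. Under TMM 7 were higher and 7 lower, and the median turned to -0.04. Sema3c, a semaphorin that guides neural crest cells into the outflow tract, was at 269 CPM, against 101 CPM (2.67 times), and its receptor gene Nrp1 at 77.4 CPM, against 30.8 CPM (2.51 times). Itga5, the fibronectin receptor chain, was at 48.4 CPM, against 173 CPM (3.57 times lower).

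Among signals to other cells, Cxcl12, a chemokine, was at 185 CPM in the Dlx/Msx cells, against 50.9 CPM in the other eGFP cells (3.65 times), and Il33, an alarmin, at 10.2 CPM from 29 UMIs, against 0.698 CPM. TGF-beta pathway genes had 3 of 17 higher and 3 lower, with a median log2 ratio of 0.26 that turned to -0.10 under TMM, where 0 of 18 were higher and 3 lower. Ctgf was at 2470 CPM, against 3980 CPM (1.61 times lower). Of 28 measured lysosome genes 11 were higher and 0 lower, with a median of 0.41, and under TMM 5 were higher and 1 lower, with a median of 0.20. Npc1, a lysosomal cholesterol transporter, was at 43.8 CPM, against 20.1 CPM (2.17 times). Among genes of the mTORC1 pathway, which Tsc1 restrains, 2 of 21 were higher and 1 lower, a share near that over all genes, with a median of 0.17 that turned to -0.05 under TMM. Deptor, an inhibitor of mTOR, was at 15.5 CPM from 44 UMIs, against 3.08 CPM (5.04 times). Notch pathway genes had 1 of 8 higher and 3 lower (median -0.25), retinoid genes 2 of 9 higher and 2 lower (median -0.28), and none of 13 mitochondrially encoded genes passed 1.5 times (median -0.12). The imprinted noncoding gene Meg3 was at 963 CPM, against 562 CPM (1.71 times).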
